A study of Arabidopsis thaliana with 4 samples.

Results

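The 26S proteasome is the protease that breaks down proteins tagged with ubiquitin. Its 20S core is a barrel of alpha and beta rings, and the protease sites lie inside, on beta subunits. The regulatory particle caps the barrel. Its RPT subunits are ATPases that unfold the substrate, and its RPN subunits form the scaffold, receive ubiquitin chains and remove them. In plants the complex turns over damaged proteins and short-lived regulators, and many of its subunits are encoded by a pair of similar genes.

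The genes described here are subunit genes of this complex in Arabidopsis thaliana, taken from a list of 50 loci. A gene was kept when a probe set of the array has it as its single gene in the platform annotation, whatever its signal. This gave 9 genes, among 13286 genes of the series with such a probe set. They are 1 gene of the 20S core, 1 RPT gene and 7 RPN genes, out of 23 core, 10 RPT and 17 RPN loci listed, and no beta subunit is among them. The other 41 loci have no such probe set in the tables used and are not analysed here. The tables name only RPN12A (AT1G64520); the other subunit names are general knowledge tied to the locus.

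Transcript levels were measured on Affymetrix arrays in mesophyll protoplasts, leaf cells freed of their walls, with 4 arrays in all. Control protoplasts received control plasmid DNA (2 arrays). The others received a plasmid that expresses KIN10 (AT3G01090), which carries the kinase activity of SnRK1, a sensor of low energy (2 arrays). All cells were then kept for 6 h in the light. For all 4 samples the labels give a cycle of 13 h light and 11 h dark and a temperature of 23 °C. They give no ecotype, promoter or plant age. Each of the 2 experiments is 1 control and 1 KIN10 transfection of protoplasts pooled from 36 plants, with 1 mg of DNA each, and the experiments differed in operator, plants, DNA and array facility. Expression was transient, and the labels do not give the share of protoplasts that took up the plasmid. In such bulk samples fewer transfected cells and a smaller change per cell cannot be told apart. No probe set in the tables has KIN10 as its single gene, so the transfection could not be checked on the arrays.

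The median signal was between 275.5 and 521.75 on the 4 arrays, and Pearson's r between arrays over tested probe sets was 0.791 to 0.931. Of 13 mesophyll markers 4 had a probe set, with a summed signal of 46772 and 66129 in controls and 63484 and 94716 with KIN10. Limma called 3 of the 4 higher with KIN10 at an adjusted p under 0.05, against 16.6% of all tested probe sets. With arrays centred as described below, control and KIN10 signals overlapped for RCA, SBPASE and PRK, but not for LHCB4.1. Of 4 guard cell markers 2 had a probe set, and their summed signal was 701.3 and 322.8 in controls and 723.0 and 212.3 with KIN10. Of these, FMA passed the filter on low signals and GC1 did not. None of these markers was at 0. No epidermal or phloem marker of the lists had a probe set. The part of cell make-up in the results below was not tested.

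No proteasome gene was called higher or lower with KIN10. The mean log2 changes of the 9 genes lay between -0.15 and 0.13, and their median was -0.01 against 0.02 for all 13648 tested probe sets. Over the same arrays limma called 33.0% of tested probe sets at an adjusted p under 0.05, with 16.6% higher and 16.4% lower. The median size of the mean change, without its sign, was 0.06 for the proteasome genes and 0.46 for all tested probe sets. This comparison was not matched for signal. The median gap between the changes of the 2 experiments was 0.336 for the proteasome genes and 0.338 for all tested probe sets. The lowest limma adjusted p among the 9 was 0.563, and 0 of them had an unadjusted p under 0.05, against 21.7% of tested probe sets higher and 21.1% lower by that rule.

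These values do not show that the transcripts stayed constant. They bound how far each may have moved relative to the median of the tested probe sets. The 95% interval of the change, from limma and without adjustment for the number of genes, reached down to -0.55 (RPN12A) and up to 0.52 (RPT4B). For all 9 genes it lay inside a 1.5-fold change in either direction. That bound depends on the fit. With no replicate block, or with arrays centred on all probe sets, 0 of the 9 intervals lay inside 1.5-fold and all 9 inside 2-fold. Scaling to hybridization spike-ins, explained below, also left 0 inside 1.5-fold, and the lowest limit there was -0.88. The number was 1 with no intensity trend, 2 with no filter on low signals, 7 with quantile normalization and 8 with the values as deposited. The standard errors, as moderated by limma, were 0.17 to 0.21 on the log2 scale, against a median of 0.23 over all tested probe sets. The probe sets are bright, since 8 of the 9 lay at the 86.7 percentile or above on every array and RPN3B between the 74.3 and 79.7 percentile. A percentile describes the brightness of a probe set, not the number of transcripts, so levels are not compared between genes.

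**Figure D1:**
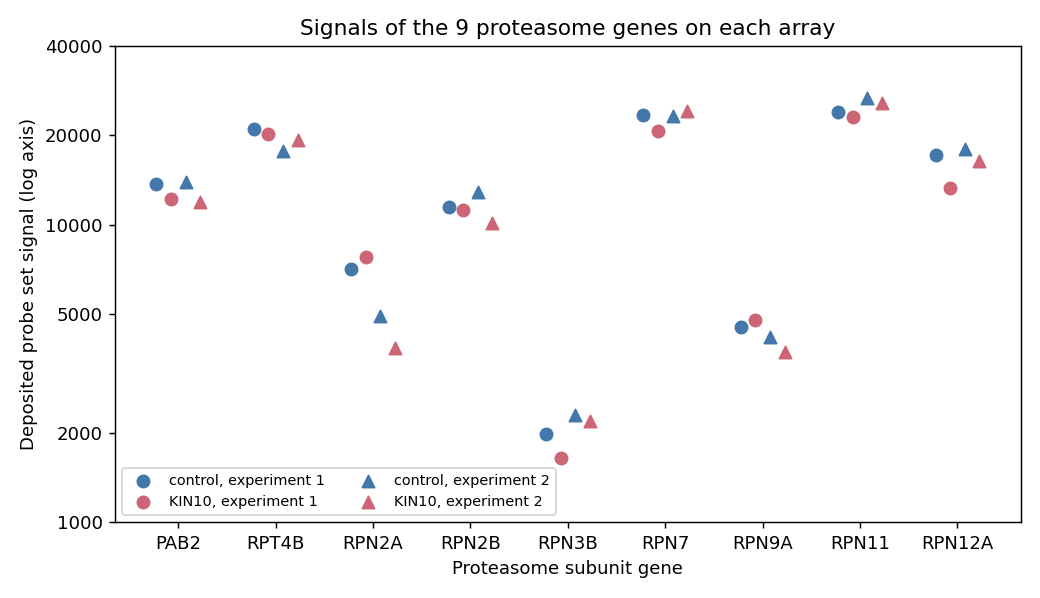
Deposited probe set signals (log axis) of the 9 proteasome genes on each of the 4 arrays, with control in blue, KIN10 in red, circles for experiment 1 and triangles for experiment 2. Control and KIN10 points of a gene lie close together, and for RPN2A both experiment 2 arrays lie below both experiment 1 arrays.

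The core is represented by PAB2 (AT1G79210), an alpha subunit of the ring through which substrates enter. Its signal was 13703 in control 1, 12201 in KIN10 1, 13940 in control 2 and 11964 in KIN10 2. Both KIN10 signals were below both control signals as deposited. The groups overlapped once each array had been centred on the median of its tested probe sets, which multiplied the signals by 0.945, 0.959, 0.986 and 1.12 in the same order. The log2 change was -0.15 in experiment 1 and -0.04 in experiment 2. The mean was -0.09 ± 0.17 (SE moderated by limma, n = 2 arrays per group), which limma did not call (adjusted p = 0.734). Here and below, this SE borrows from the spread of other probe sets and is not the spread of the gene's own arrays alone.

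RPT4B (AT1G45000) is the measured gene of the ATPase ring, which pulls substrates into the core. Its signals were 21058 (control 1), 20229 (KIN10 1), 17794 (control 2) and 19311 (KIN10 2). The KIN10 signals lay between the control signals. The change was -0.04 in experiment 1 and 0.30 in experiment 2, the highest of the 9 in that experiment. On average it was 0.13 ± 0.18 (limma, adjusted p = 0.620), with a 95% interval from -0.26 to 0.52.

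RPN2A (AT2G32730) and RPN2B (AT1G04810) encode the same large scaffold subunit of the base, next to the ATPase ring. RPN2A had signals of 7097 (control 1), 7807 (KIN10 1), 4955 (control 2) and 3848 (KIN10 2). RPN2B had 11505, 11191, 12870 and 10114 in the same order. After centring, the RPN2A signals differed more between experiments than between groups. They were lower in experiment 2 by 0.46 (control) and 0.80 (KIN10) on the log2 scale, while RPN2B was higher there by 0.22 and 0.08. With KIN10, RPN2A changed by 0.16 and -0.18 in experiments 1 and 2 (mean -0.01 ± 0.19). RPN2B changed by -0.02 and -0.17 (mean -0.09 ± 0.17). Limma called neither (adjusted p = 0.973 and 0.737). Each gene has a probe set of its own in the annotation, and how much transcript of the other copy each one picks up is not known from the tables.

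The other 5 genes encode RPN3, RPN7, RPN9, RPN11 and RPN12, which belong to the lid of the regulatory particle. RPN11 is the subunit that cuts ubiquitin chains off substrates before they enter the core. The signals of RPN11 (AT5G23540) were 23913 (control 1), 23077 (KIN10 1), 26628 (control 2) and 25667 (KIN10 2). In both experiments the KIN10 signal was a little below its own control as deposited, and the 2 groups overlapped. After centring, the change was -0.03 and 0.13 in experiments 1 and 2, with a mean of 0.05 ± 0.17 (limma, adjusted p = 0.858).

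RPN12A (AT1G64520), a lid subunit that in Arabidopsis has been studied for its part in hormone responses, had the lowest mean change of the 9. Its signals were 17185 (control 1), 13297 (KIN10 1), 18056 (control 2) and 16367 (KIN10 2). Both KIN10 signals were below both controls as deposited, and the groups overlapped after centring. The change was -0.35 in experiment 1 and 0.04 in experiment 2. The mean was -0.15 ± 0.18 (limma, adjusted p = 0.563).

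RPN7 (AT4G24820), a structural subunit of the lid, had signals of 23499 (control 1), 20639 (KIN10 1), 23292 (control 2) and 24258 (KIN10 2). Its KIN10 signals were the lowest and the highest of the 4. The log2 changes were -0.17 and 0.24, the widest gap between experiments among the 9 (0.41), and the mean was 0.04 ± 0.18 (limma, adjusted p = 0.901).

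RPN3B (AT1G75990), also a structural lid gene, had signals of 1980 (control 1), 1651 (KIN10 1), 2298 (control 2) and 2198 (KIN10 2). Both signals of experiment 2 were above both of experiment 1. Its changes were -0.24 and 0.12 in experiments 1 and 2, with a mean of -0.06 ± 0.21 (limma, adjusted p = 0.856).

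RPN9A (AT5G45620), which encodes another lid subunit, varied least of the 9 after centring, but not as deposited. Its signals were 4519 (control 1), 4807 (KIN10 1), 4209 (control 2) and 3731 (KIN10 2). After centring, the 4 values spanned 0.15 on the log2 scale, and only 0.52% of all tested probe sets had a narrower span. The changes were 0.11 and 0.01 (mean 0.06 ± 0.19; limma, adjusted p = 0.844). RPN9A was the member above 0 in both experiments.

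**Figure D2:**
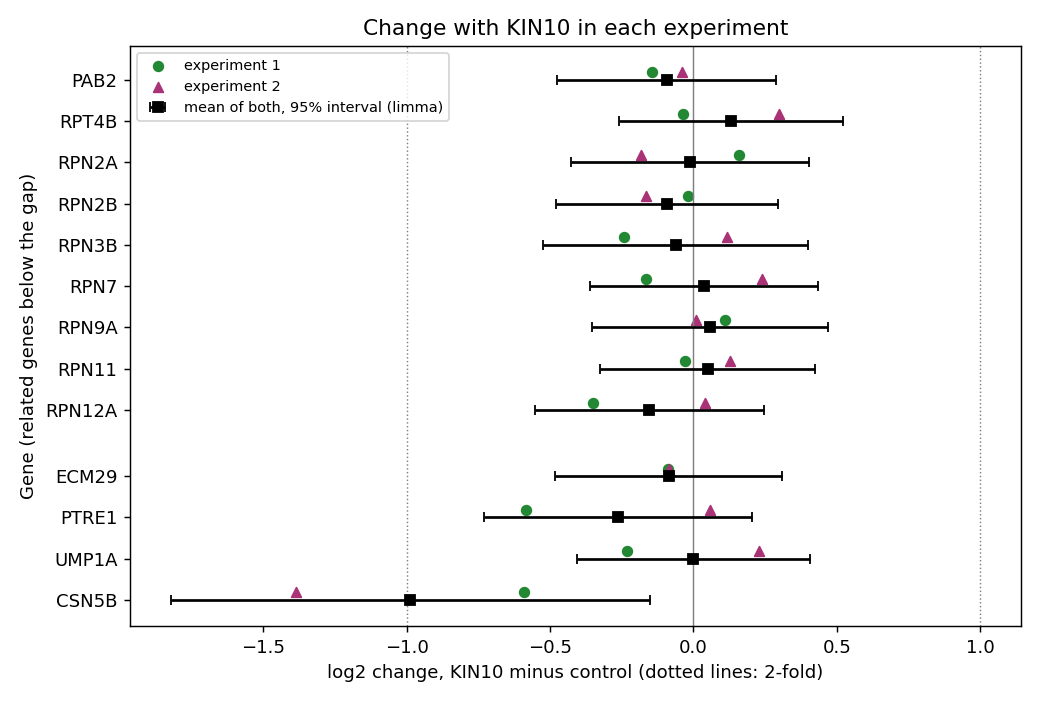
Log2 change with KIN10 for the 9 proteasome genes and 4 related genes, with green circles for experiment 1, purple triangles for experiment 2, and black squares with bars for the mean and its 95% interval from limma. The intervals of the 9 proteasome genes all include 0 and stay inside a 1.5-fold change in this fit, whereas that of CSN5B runs from -1.82 to -0.15.

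Between the experiments, the direction was mostly not shared. Of the 9 genes 1 (RPN9A) was higher with KIN10 in both experiments and 2 (PAB2 and RPN2B) were lower in both. Over all tested probe sets 39.9% were higher in both and 37.0% lower in both. The remaining 6 went opposite ways, against 23.1% of all tested probe sets. Of these 6, 5 were below 0 in experiment 1 and above 0 in experiment 2, and RPN2A went the other way. The median change of the 9 was -0.04 in experiment 1 and 0.04 in experiment 2. For all tested probe sets it was 0.05 and -0.003.

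After centring, control and KIN10 signals overlapped for all 9 genes. Over all tested probe sets 25.4% had both KIN10 signals above both controls, and 24.8% had both below. On the deposited signals 3 of the 9 (PAB2, RPN2B and RPN12A) had both KIN10 signals below both controls and 0 had both above, against 28.3% and 21.9% of all tested probe sets. The span of the 4 centred signals had a median of 0.38 over the 9 genes. It ran from 0.15 for RPN9A to 0.80 for RPN2A, the last of which exceeded the span of 32.6% of all tested probe sets.

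**Figure D3:**
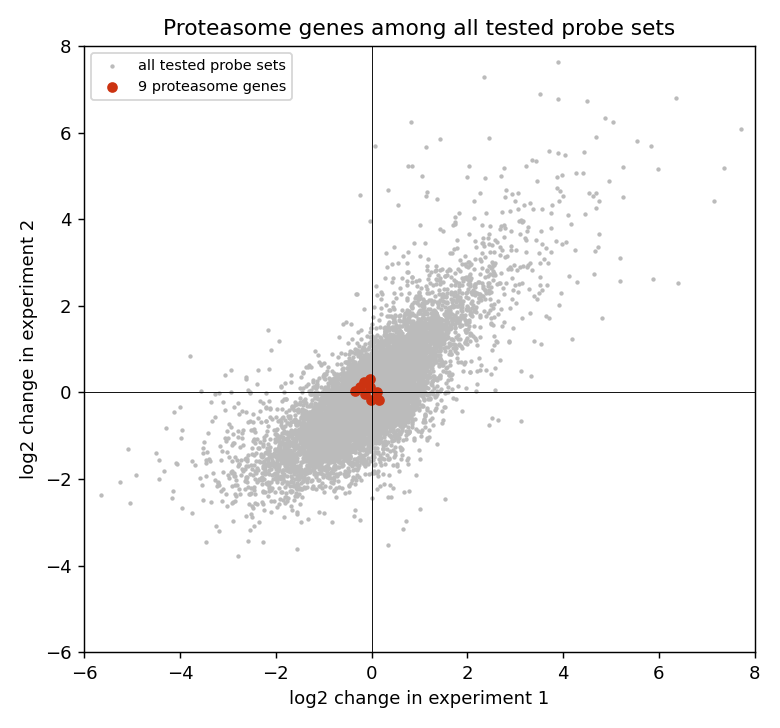
Log2 change in experiment 1 (horizontal) and experiment 2 (vertical) of all 13648 tested probe sets (grey) and the 9 proteasome genes (red), on axes from -6 to 8 that leave out 1 probe set. The proteasome genes lie at the centre of the cloud, between -0.35 and 0.16 in experiment 1 and between -0.18 and 0.30 in experiment 2.

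The core and the regulatory particle could be compared only through PAB2. Its mean change of -0.09 lay within the range of the 8 regulatory particle genes, -0.15 to 0.13, whose median was 0.01. By experiment, PAB2 had -0.15 and -0.04, and the 8 genes had medians of -0.03 and 0.08. All tested probe sets had medians of 0.05 and -0.003. With 1 core gene there is no spread within the core, and the difference was not tested.

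The sign of these small changes depended on how the arrays were scaled. With the values as deposited, 8 of the 9 mean changes were below 0, and 5 genes were lower in both experiments (41.9% of all tested probe sets were). With quantile normalization all 9 mean changes were below 0 (-0.31 to -0.01), and 6 genes were lower in both (39.9%). Limma called 0 of the 9 lower in either case, with 18.4% and 17.9% of all tested probe sets called lower, and none of the 9 had an unadjusted p under 0.05 (lowest 0.108 and 0.0625). Arrays were also scaled to their hybridization spike-ins, bacterial and phage controls of the hybridization step, which do not measure RNA per cell. With this scaling all 9 were lower in both experiments (58.3% of all tested probe sets were). On that scale limma called RPN12A (-0.51, adjusted p = 0.0260), PAB2 (-0.45, adjusted p = 0.0433) and RPN2B (-0.45, adjusted p = 0.0469) lower. There 31.5% of all tested probe sets were called lower, and the median of all was -0.34, beside -0.37 for the 9 genes. Relative to the median of all tested probe sets, the median of the 9 was -0.03 on the spike-in scale, as deposited and after centring. That value is the same by construction, since these scalings differ only by 1 constant per array. After quantile normalization it was -0.18.

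**Figure D4:**
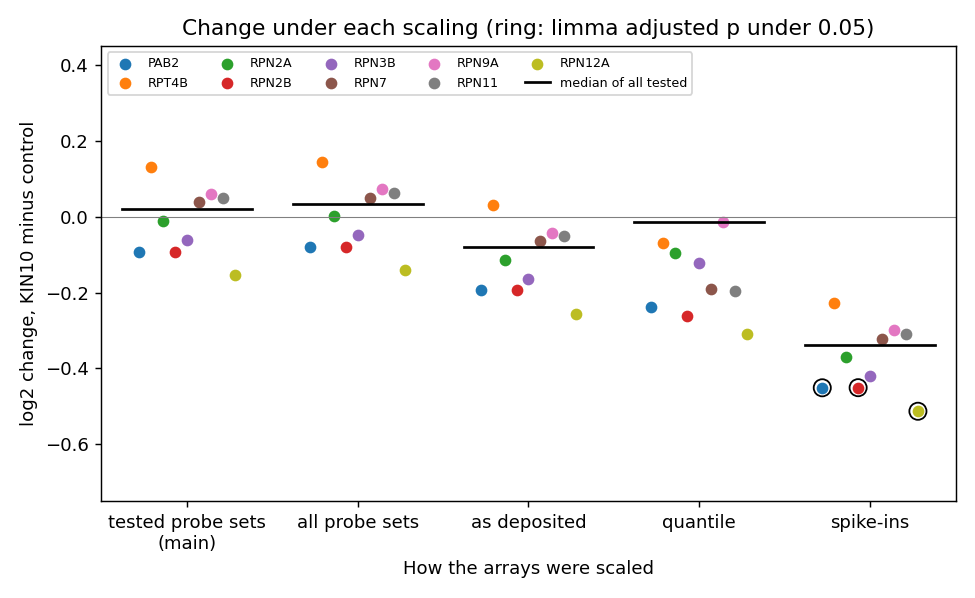
Mean log2 change of each proteasome gene (colours) under 5 ways of scaling the arrays, with a black line for the median of all tested probe sets and a ring where limma's adjusted p was under 0.05. The 9 genes lie on both sides of the line except after quantile normalization, where all 9 lie below it. The other scalings shift genes and line alike by construction. Rings appear for 3 genes on the spike-in scale.

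A list of 43 related genes held other proteasome genes and regulators, ubiquitin system genes and COP9 signalosome genes. Of these 43, 4 had a single-gene probe set, and limma called 0 of them. UMP1A (AT1G67250) encodes a chaperone that helps assemble the core in yeast. Its changes were -0.23 and 0.23 in experiments 1 and 2 (mean 0.00 ± 0.18; limma, adjusted p = 0.999). ECM29 (AT2G26780), whose yeast counterpart holds core and cap together, changed by -0.09 and -0.08 (mean -0.09 ± 0.18; limma, adjusted p = 0.759). PTRE1 (AT3G53970), related to an animal proteasome regulator, changed by -0.58 and 0.06 (mean -0.26 ± 0.21; limma, adjusted p = 0.383).

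The COP9 signalosome resembles the lid and takes the small protein NEDD8 (RUB in plants) off ubiquitin ligases. Its catalytic subunit gene CSN5B (AT1G71230), a relative of RPN11, was the measured one of 10 listed. Its signals were 514.9 (control 1), 337.2 (KIN10 1), 472.9 (control 2) and 159.5 (KIN10 2). The probe set is dimmer than those of the 9 proteasome genes, between the 39.8 and 53.9 percentile on the 4 arrays. Both KIN10 signals lay below both controls as deposited (28.3% of all tested probe sets did) and after centring (24.8%). The changes were -0.59 and -1.39, and the mean was -0.99 ± 0.38. Limma gave an unadjusted p = 0.0247 and an adjusted p = 0.0682, so it was not called. Over the other settings with 4 arrays limma's adjusted p ran from 0.0126 (spike-in scale) to 0.413 (no replicate block), and it was under 0.05 in 2 of them, on the spike-in scale and with arrays centred on all probe sets (0.0273). In fits to 3 arrays without the block, the change ran from -1.42 without KIN10 1 to -0.56 without KIN10 2, and limma did not call it (adjusted p from 0.229 to 0.948). RPN11 on the same arrays had -0.03 and 0.13, and the difference between these genes was not tested.

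Ubiquitin itself had values only through the control probe sets of the array, since none of the 20 listed genes of the ubiquitin system had a single-gene probe set. These 5 control probe sets, marked for ubiquitin, were chosen after their values were seen and stand outside the test. Their log2 changes, centred like the other probe sets, were 0.29 to 0.82 in experiment 1 and 0.50 to 0.69 in experiment 2. All 5 were higher with KIN10 in both experiments after centring, as deposited and after quantile normalization, but 3 of 5 on the spike-in scale. They share sequence among ubiquitin genes and are not independent of each other.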

How the data were processed

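The authors deposited 1 linear intensity per probe set and array, made with GCOS 1.0 per the submitters' processing notes, with settings not given in the sources used here. The mean signal after trimming was 1500 on every array, so the arrays share a common scale. Signals were put on the log2 scale after 1 value at or below 0 had been set to that array's lowest signal above 0. The 64 control probe sets were set apart. Probe sets below the 40th percentile of mean log2 signal were removed, which left 13648 and took out 9098. Each array was then centred on the median of those left. Centring on all probe sets leaves an offset between the experiments and a prior of 1311 degrees of freedom, against 9.67 here. The model (limma 3.58.1, R 4.3.3) held group and experiment, and eBayes moderated its 1 residual degree of freedom along an intensity trend. P-values were adjusted by Benjamini-Hochberg over all 13648 probe sets. It was tested on simulated data. All 9 proteasome genes passed the filter, and each had 1 probe set. Experiment is a block because, per the labels, control and KIN10 cells of a number came from 1 protoplast pool, and same-numbered arrays deviated together (r = 0.705 across probe sets). The number of arrays limits the precision.

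Of 13513 probe sets with a single gene name, 13436 matched a RefSeq table of assembly TAIR10.1, and 503 had several names and were not used by name. All measured genes of the member list and the related lists are named. The members and lists were chosen with earlier results of these data known. Alternatives were other scalings, filter, offset, prior and block, and each array left out. The median changes of the core and the regulatory particle, the counts of members with the same direction and the lists carry no test.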

Additional observations from a re-analysis of the deposited data

How the results depend on the processing

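Precision is limited by 2 arrays per group and 1 residual degree of freedom. The interval of every proteasome gene stayed within a 2-fold change under all settings with 4 arrays except no filter (6 of 9). With 1 array left out and no block, 0 to 7 of 9 did. Limma called 0 of the 9 genes in every setting but the spike-in scale (3). Over all probe sets limma called 4508 (2270 higher, 2238 lower), but 785 with no replicate block and 700 to 2488 with 1 array left out, and on the spike-in scale 1318 higher and 4301 lower. The cause was not tested.

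With no replicate block 0 of the 9 genes were called, and their changes are the same by construction. Genes higher in both experiments numbered 1, but 0 when centred on all probe sets, as deposited, with quantile normalization, on the spike-in scale and with no filter. Those lower in both numbered 2, but 1, 5, 6, 9 and 1 under these settings. The median of the core (PAB2, -0.09) was -0.19 as deposited, -0.24 with quantile normalization and -0.45 on the spike-in scale, and -0.19 to 0.0045 with 1 array left out. That of the regulatory particle (0.01) was -0.089, -0.16 and -0.35, and -0.13 to 0.16.

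Signs of single uncalled changes turned as follows, by scaling. As deposited, RPN11 had -0.052, RPN7 -0.064 and RPN9A -0.042. With quantile normalization RPN11 had -0.20, RPN7 -0.19, RPN9A -0.015 and RPT4B -0.069. On the spike-in scale they had -0.31, -0.32, -0.30 and -0.23. Centred on all probe sets or with no filter, RPN2A had 0.00068 and UMP1A 0.012. With 1 array left out, PAB2 ran from -0.19 to 0.0045, RPN11 from -0.14 to 0.24, RPN12A from -0.42 to 0.11, RPN2A from -0.41 to 0.39 and RPN2B from -0.20 to 0.020. RPN3B ran from -0.38 to 0.26, RPN7 from -0.19 to 0.26, RPN9A from -0.013 to 0.13, ECM29 from -0.19 to 0.020, PTRE1 from -0.58 to 0.053 and UMP1A from -0.22 to 0.22. RPT4B and CSN5B kept their sign with each array left out. PTRE1 was called lower on the spike-in scale (-0.62; limma, adjusted p = 0.0243). Averaging several probe sets of a gene was not run, since each gene has 1.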
